A study of Mus musculus with 6 samples.

Results

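Genes of blood clotting, clot breakdown and thrombospondin-1 were compared between cells obtained from mature dendritic cells on spleen stroma (diffDC) and the LPS-matured dendritic cells themselves (maDC). They were the tissue factor gene F3, the clotting factor genes F7, F10 and F13a1, the plasminogen activation genes Plau, Plaur and Serpinb2, the protein C receptor gene Procr, and Thbs1. The genes were chosen by symbol, and all 9 had a row among the 15282 genes of the authors' deposited table. The choice was made with the pooled read numbers of these same groups in view, so the values below are a description and carry no test.

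The diffDC were wild type C57/BL6 mouse cells: bone marrow cells grown for 6 days with IL-4 and GM-CSF, given LPS over 24 hours, isolated with magnetic beads against CD11c, and then kept on spleen stroma for 9 days. The maDC were wild type C57/BL6 cells taken through the same cytokines, LPS and bead isolation, without the coculture. Both groups therefore shared the cytokines, the LPS and the bead isolation. Age and sex of the mice, and whether stroma was removed before RNA extraction, were not given in the sources used. The labels name 3 libraries in each group, but the table gives 1 read number per gene and group, taken here as a pool. These add to 89836110 reads in diffDC and 69190437 in maDC. No difference below has a replicate check, and every interval is a 95% counting interval on the pooled reads, with differences between cultures and PCR copies outside it.

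Clotting begins when tissue factor, a membrane protein, binds factor VIIa, and this pair activates factor X, which makes thrombin from prothrombin. Thrombin turns fibrinogen into fibrin, factor XIII crosslinks it, and plasmin, made from plasminogen by urokinase or tissue-type plasminogen activator, dissolves it. The protein C pathway, in which the endothelial protein C receptor presents protein C to thrombin on thrombomodulin, switches the cascade off. Monocytes and macrophages are known for making tissue factor, factor XIII A chain, urokinase and its receptor. Thrombospondin-1 is a secreted matrix glycoprotein that binds the receptors CD36 and CD47 and can activate latent TGF-beta.

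The 9 genes went both ways. In diffDC 4 of them, F13a1, F3, Plau and Plaur, were higher, and 4 others, Procr, F10, F7 and Thbs1, were lower. Serpinb2 was not called. A gene was called when its ratio after TMM scaling, a correction for library size and composition, was at least 2-fold and its counting interval did not include equality. Of all 15282 genes, 23.3% were called higher and 21.0% lower in diffDC by this rule, 44.3% in either direction. The call of Thbs1 depended on the scaling, as its values below show. Together the 9 genes held 0.729% of the diffDC reads and 1.16% of the maDC reads. Thbs1 took 56.3% of these reads in diffDC and 77.0% in maDC, while F13a1 took 32.0% in diffDC and 0.383% in maDC. In these bulk pools, fewer cells of a type and less RNA per cell cannot be told apart.

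**Figure D1:**
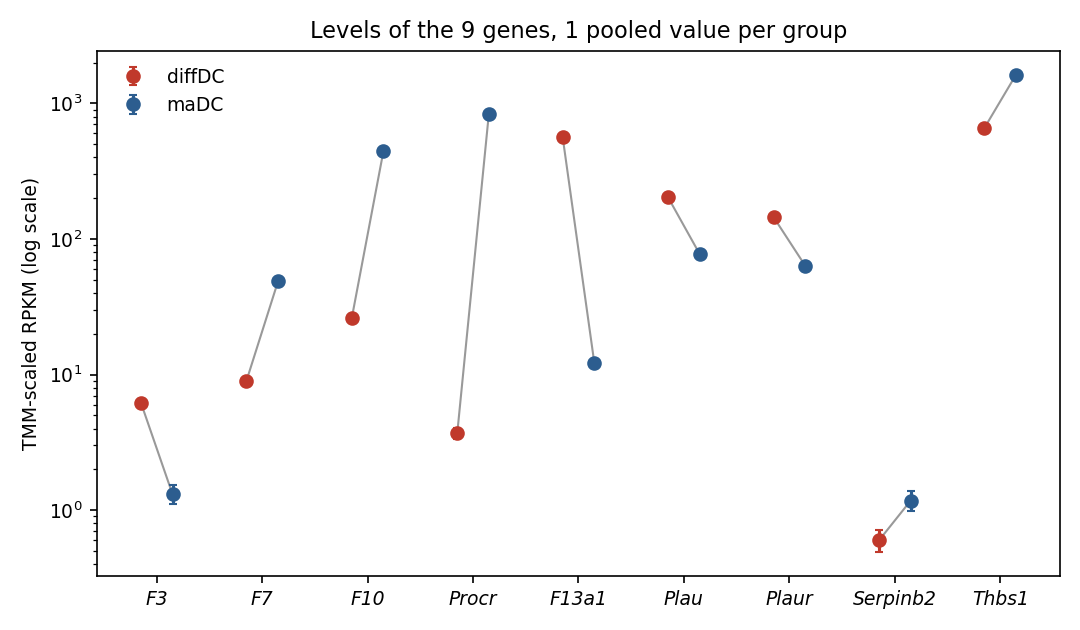
Level of each of the 9 genes in the diffDC pool (red, left) and the maDC pool (blue, right), in TMM-scaled RPKM on a log scale, with exact Poisson 95% counting intervals, most of them smaller than the points. Procr has the widest gap, 3.68 in diffDC and 840 in maDC, and F13a1 the widest gap in the other direction, 564 in diffDC and 12.2 in maDC.

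Promoter sequences from RefSeq on GRCm38.p6, 250 bases before to 50 bases after a gene's start, were matched by symbol for 7 of the 9 genes. A search on both strands for the AP-1 motif TGANTCA found it in the windows of F3, Plaur, Procr and Serpinb2, and in 7.81% of all 32851 windows of that table. A search for an NF-kappaB motif, GGG and CC with any 5 bases between, found it in windows of 5 of the 7 genes and in 50.8% of all windows. The 7 genes had 9 windows, so for both motifs the count per gene and the share per window are unlike measures. The windows shown are those of the 2 genes with the widest changes, Procr and F13a1, and of F3 and Plaur, which were higher in diffDC and hold AP-1 matches. Capitals mark the AP-1 matches, and the F13a1 window shown has none. The matches begin 146 and 135 bases before the start of F3, 69 before that of Plaur and 154 before that of Procr. These positions are counted from the RefSeq starts, and that of Procr lies downstream of the GENCODE start given below. Matches thus lie before genes that were higher and before a gene that was lower in diffDC, and they describe letters, not bound sites.
F3, chr3:121723287-121723586, plus strand: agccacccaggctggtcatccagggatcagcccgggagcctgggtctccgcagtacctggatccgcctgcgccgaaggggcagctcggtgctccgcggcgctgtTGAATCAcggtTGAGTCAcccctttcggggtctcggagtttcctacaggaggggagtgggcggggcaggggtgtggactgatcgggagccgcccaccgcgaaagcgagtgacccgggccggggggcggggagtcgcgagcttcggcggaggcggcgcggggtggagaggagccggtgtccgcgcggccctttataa
Plaur, chr7:24462233-24462532, plus strand: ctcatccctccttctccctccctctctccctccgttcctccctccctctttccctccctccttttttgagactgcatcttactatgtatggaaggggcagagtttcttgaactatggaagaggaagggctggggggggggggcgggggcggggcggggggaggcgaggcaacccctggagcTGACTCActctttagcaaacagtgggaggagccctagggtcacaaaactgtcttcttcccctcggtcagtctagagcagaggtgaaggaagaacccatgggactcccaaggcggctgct
Procr, chr2:155750967-155751266, plus strand: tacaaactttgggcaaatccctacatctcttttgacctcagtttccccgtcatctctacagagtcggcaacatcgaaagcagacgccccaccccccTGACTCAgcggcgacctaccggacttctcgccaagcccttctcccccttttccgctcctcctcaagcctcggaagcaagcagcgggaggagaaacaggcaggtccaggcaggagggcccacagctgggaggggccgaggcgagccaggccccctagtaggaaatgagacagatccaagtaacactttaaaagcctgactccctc
F13a1, chr13:37050195-37050494, minus strand: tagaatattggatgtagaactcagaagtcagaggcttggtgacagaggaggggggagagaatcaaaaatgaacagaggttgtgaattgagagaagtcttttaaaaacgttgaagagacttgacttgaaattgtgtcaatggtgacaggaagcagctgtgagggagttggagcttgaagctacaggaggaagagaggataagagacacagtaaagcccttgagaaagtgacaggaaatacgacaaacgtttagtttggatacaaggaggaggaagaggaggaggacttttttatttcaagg

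The start of the cascade was split between its receptor and its proteases. F3, encoding tissue factor, had 1112 reads in diffDC and 159 in maDC, a level of 6.19 RPKM in diffDC and 1.31 in maDC (RPKM, TMM-scaled reads relative to sequencing depth and to the authors' gene length in kilobases). It was 4.73-fold higher in diffDC (interval 4.005 to 5.63), a log2 ratio of 2.24. F3 stayed a gene of low level in both pools, at rank 8205 by reads in diffDC and 10264 in maDC. F7, whose protein binds tissue factor, had 1589.06 reads in diffDC and 5845.69 in maDC and was 5.44-fold lower in diffDC (interval 5.14 to 5.75). F10, the protease that the pair activates, had 6722 reads in diffDC and 77342 in maDC and was 17.0-fold lower in diffDC (interval 16.6 to 17.4). By reads F10 stood at rank 2990 in diffDC and at rank 90 in maDC, among the most read genes of that pool. Per length, the level of F10 was 2.92 times that of F7 in diffDC and 9.14 times in maDC. The level of F7 was 1.45 times that of F3 in diffDC and 37.2 times in maDC, so receptor and ligand transcripts were much closer in diffDC.

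F7 and F10 are neighbours on the plus strand of chromosome 8 in GRCm38, F7 at 13026034 to 13035809 and F10 at 13037308 to 13056676, with 1499 bases from the end of F7 to the start of F10. The protein-coding genes on either side were also lower in diffDC. Mcf2l, encoding a guanine nucleotide exchange factor, had 255.62 reads in diffDC and 11515.67 in maDC, a log2 ratio of -6.06. Proz, encoding the vitamin K-dependent protein Z, had 7 reads in diffDC and 25.9 in maDC, a log2 ratio of -2.45. All 4 lie on that stretch in the order Mcf2l, F7, F10 and Proz. F3 lies on chromosome 3 at 121723537 to 121735048 on the plus strand, and its matched neighbour Abcd3, a peroxisomal transporter gene, had a log2 ratio of 0.48 and was not called.

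The remaining clotting factor list held 19 genes, of which 12 were matched to a row, with 4 higher, 1 lower and 7 not called. Its median log2 ratio was 0.63, against 0.03 over all genes. The 4 higher genes were F9, F8, F5 and Vkorc1, of which F5 and Vkorc1 are named because the count is small, after their values were seen. F5, encoding the cofactor of factor Xa, had 3717.19 reads in diffDC and 574.99 in maDC and was 4.38-fold higher in diffDC (interval 4.01 to 4.79). F8 and F9, encoding the factors of the tenase complex, had few reads, 110 and 33 in diffDC and 17 and 4 in maDC. Vkorc1, the vitamin K epoxide reductase that factors VII and X depend on, was 2.71-fold higher (interval 2.39 to 3.09). Vwf, encoding von Willebrand factor of platelets and endothelium, was the 1 that fell, 2.74-fold (interval 2.34 to 3.20). F2, encoding prothrombin, was listed at 1 read in diffDC and 1 in maDC. With the authors' library factor, Ggcx, the vitamin K-dependent carboxylase, and Vkorc1l1 passed too, at log2 ratios of 1.29 and 1.36. They also passed with the read totals, at 1.04 and 1.11, and either scaling gave 6 higher and 1 lower. With the authors' library factor 32.2% of all genes were called higher and 15.7% lower. The shares of all genes with the read totals were not computed.

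Hepatocyte markers were read in the same pools. Of 10 such markers 5 were matched, 2 higher and 2 lower, with a summed level of 6.74 RPKM in diffDC and 20.3 in maDC. Most of that sum was Hp, the haptoglobin gene, at 5.63 RPKM in diffDC and 19.6 in maDC. Apoa1 was listed at 0 in diffDC and Ahsg at 0 in maDC. The other 5 markers, Alb among them, had no matched row, and the part of hepatocyte-type RNA in the F7 and F10 values was not tested.

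F13a1, encoding the A chain of the fibrin-crosslinking factor XIII, had the widest rise of the 9 genes. It had 209479 reads in diffDC and 3072 in maDC, 46.2-fold higher in diffDC (interval 44.5 to 47.8), a log2 ratio of 5.53. Its rank by reads was 25 in diffDC and 4209 in maDC, so it became one of the most read genes of the diffDC pool. By log2 ratio it stood at place 418 from the top among 15282 genes. On chromosome 13 it lies at 36867178 to 37050244, minus strand, and overlaps 2 antisense genes, Gm49144 and Gm30489. No source used here states whether counting used strand, so reads of these partners cannot be told apart from its own. F13b, the carrier chain gene, had no matched row.

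Markers of 2 cell types known for factor XIII A did not move alike. Of 15 macrophage markers, 12 were higher and 2 lower in diffDC, with a summed level of 10670 RPKM in diffDC and 784 in maDC, and none was at 0. Of 12 platelet and megakaryocyte markers, 2 were higher and 9 lower, with a summed level of 236 RPKM in diffDC and 77.8 in maDC. That sum was carried by Pf4, encoding platelet factor 4, at 230 RPKM in diffDC and 64.0 in maDC. The defining platelet genes Gp9 and Gp6 were listed at 0 in diffDC, and the integrin gene Itga2b had 36.81 reads in diffDC and 558.86 in maDC. The part of macrophage-type cells in the F13a1 values was not tested.

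**Figure D2:**
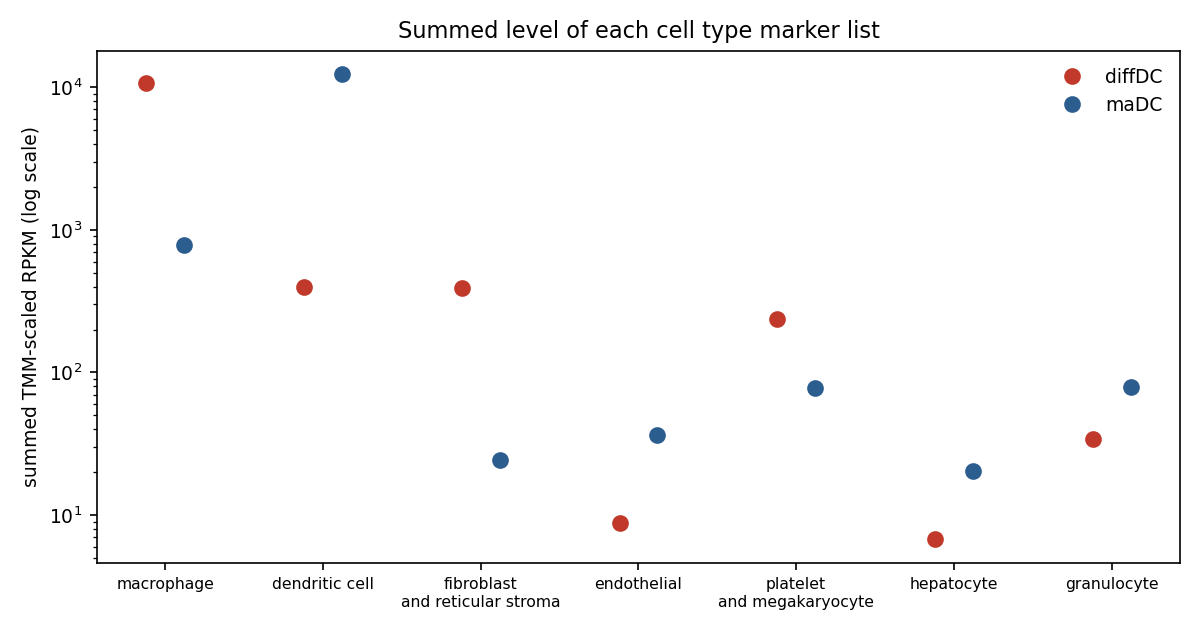
Summed TMM-scaled RPKM of each cell type marker list (log scale) in the diffDC pool (red, left) and the maDC pool (blue, right), 1 pooled value each. Macrophage markers sum to 10670 in diffDC and 784 in maDC, dendritic cell markers to 397 in diffDC and 12390 in maDC, and stroma markers to 391 in diffDC and 24.4 in maDC.

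Procr, encoding the endothelial protein C receptor, had the widest fall. It had 518 reads in diffDC (interval 474 to 565) and 79965 in maDC, 228-fold lower in diffDC (interval 209 to 249), a log2 ratio of -7.83. By log2 ratio it stood at place 80 from the bottom among 15282 genes. Its rank by level per length was 8614 in diffDC and 72 in maDC. Procr lies on chromosome 2 at 155751117 to 155755471, and no annotated gene overlaps it. Its matched neighbour Mmp24, a membrane metalloproteinase gene, had 1 read in diffDC and 2 in maDC.

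Thbd and Pros1, of the protein C pathway, moved the other way from Procr, as did Tfpi, which acts elsewhere in the cascade. Thbd, encoding thrombomodulin, had 9451 reads in diffDC and 411 in maDC and was 15.6-fold higher in diffDC (interval 14.1 to 17.2). Pros1, encoding protein S, the cofactor of activated protein C and a ligand for apoptotic cell uptake, had 7353 reads in diffDC and 225 in maDC, 22.1-fold higher (interval 19.4 to 25.4). Tfpi, the inhibitor of the tissue factor and factor VIIa pair, had 1231.8 reads in diffDC and 111 in maDC, 7.51-fold higher (interval 6.18 to 9.21). The gene of protein C itself, Proc, had no matched row. Of the 11 anticoagulant genes listed, 8 were matched, 3 higher, 3 lower and 2 not called, with a median log2 ratio of -0.85 against 0.03 over all genes. The 3 lower genes were Proz, Tfpi2 and the antithrombin gene Serpinc1, all with few reads, at most 18 in diffDC and 51 in maDC. Serpinc1 is named because the count is small, after its values were seen.

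Endothelial and dendritic cell markers were lower in the same pool as Procr. Of 12 endothelial markers 8 were matched, 1 higher and 6 lower, with a summed level of 8.75 RPKM in diffDC and 36.4 in maDC, most of it Kdr, at 7.33 in diffDC and 32.0 in maDC. The defining genes Pecam1 and Cdh5 had levels of 0.387 and 0.0707 RPKM in diffDC and 2.22 and 1.16 in maDC, while Procr alone had 840 RPKM in maDC. Of 15 dendritic cell markers, 14 were lower and none higher in diffDC, with a summed level of 397 RPKM in diffDC and 12390 in maDC. Itgax, encoding CD11c, was the marker not called, at 89.3 RPKM in diffDC and 103 in maDC. The part of a change in cell make-up in the Procr values was not tested.

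**Figure D3:**
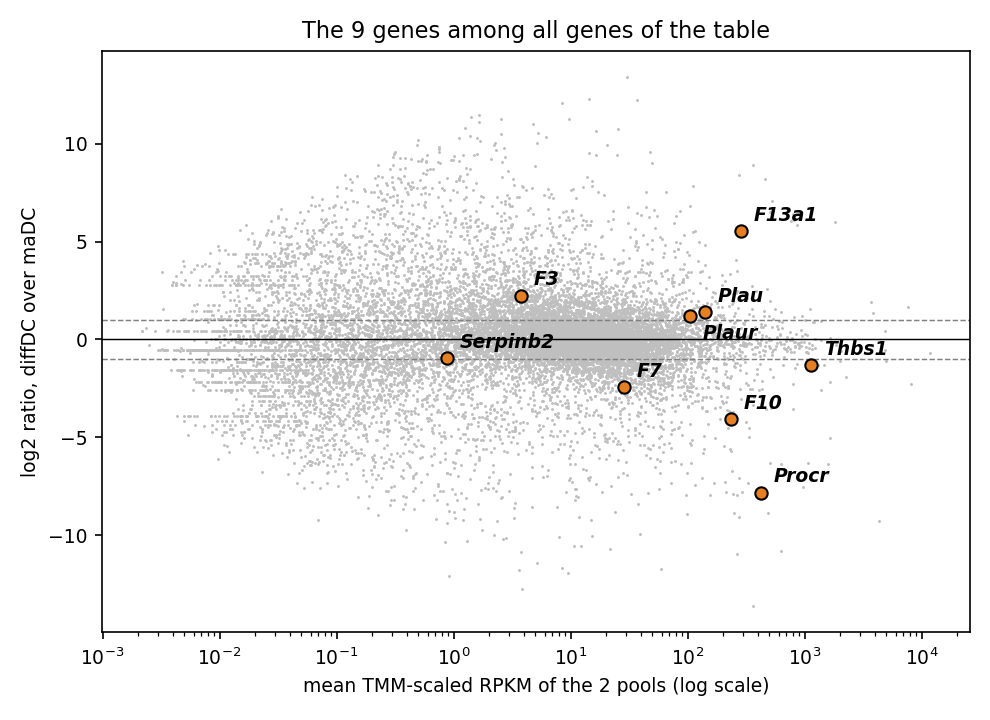
Log2 ratio of diffDC over maDC against the mean TMM-scaled RPKM of both pools (log scale) for the genes of the table with reads (grey) and the 9 genes (orange), with dashed lines at 2-fold. Procr at -7.83 and F13a1 at 5.53 lie far from 0 among genes of high level, while Thbs1 at -1.31 lies near the lower dashed line.

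Plau, encoding urokinase, and Plaur, encoding its receptor, were higher in diffDC by similar factors. Plau had 45431 reads in diffDC and 11733 in maDC, 2.62-fold higher in diffDC (interval 2.57 to 2.67). Plaur had 21015 reads in diffDC and 6232 in maDC, 2.28-fold higher in diffDC (interval 2.22 to 2.35). Enzyme and receptor kept a similar proportion, with the level of Plau 1.40 times that of Plaur in diffDC and 1.22 times in maDC. Both were called under each of the 4 scalings tried. They lie on different chromosomes, Plau on 14 at 20836660 to 20843385 and Plaur on 7 at 24462484 to 24475968, both on the plus strand.

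Serpinb2, encoding plasminogen activator inhibitor 2, had the fewest reads of the 9 genes. It had 113 reads in diffDC (interval 93.1 to 136) and 150 in maDC (interval 127 to 176). Its fold of 1.96 lower in diffDC (interval 1.53 to 2.53) fell just short of the 2-fold limit, and the level was 0.598 RPKM in diffDC and 1.17 in maDC. The gene, on chromosome 1 at 107511423 to 107535478, overlaps Serpinb10 on the same strand, so reads could be divided between the 2. Serpinb10 had 31 reads in diffDC and 19 in maDC. The level of Plau was 339 times that of Serpinb2 in diffDC and 65.9 times in maDC.

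Among the other genes of fibrinolysis, 10 of 13 listed were matched, 4 higher, 2 lower and 4 not called, with a median log2 ratio of 0.21 against 0.03 over all genes. Plat, encoding the other plasminogen activator, went against Plau, with 987 reads in diffDC and 4099 in maDC, 6.14-fold lower in diffDC (interval 5.72 to 6.58). Plgrkt, encoding a plasminogen receptor, was 2.78-fold lower (interval 2.67 to 2.89). S100a10, the annexin A2 partner that holds plasminogen at the cell surface, was 3.11-fold higher, with a log2 ratio of 1.64, and is named here after its values were seen. Lrp1, the receptor that helps clear urokinase, had 511604 reads in diffDC and 35794 in maDC, 9.67-fold higher in diffDC (interval 9.57 to 9.78). Mrc2, encoding a collagen uptake receptor that binds the urokinase receptor, had 939 reads in diffDC and 60 in maDC, 10.6-fold higher (interval 8.16 to 14.0). Plg, the plasminogen gene, had no matched row.

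The clade B serpins, relatives of Serpinb2, also went both ways. Of 11 listed genes 9 were matched, 2 higher, 4 lower and 3 not called, with a median log2 ratio of 0.14. Serpinb6a had 67030 reads in diffDC and 2738 in maDC, 16.6-fold higher in diffDC (interval 16.0 to 17.2), and Serpinb12 had 33 reads in diffDC and 1 in maDC. The close relative Serpinb6b had 1577 reads in diffDC and 20127 in maDC, 18.9-fold lower in diffDC (interval 17.9 to 19.9), and Serpinb1b had 4 reads in diffDC and 50.3 in maDC. Reads can be divided among close relatives of this family, so single members are uncertain. With the authors' library factor or the read totals, Serpinb1a and Serpinb8 passed as well, which gave 4 higher and 4 lower. The authors' factor called 32.2% of all genes higher and 15.7% lower, and the shares with the read totals were not computed.

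Thbs1, encoding thrombospondin-1, was the most read of the 9 genes in both pools. It had 368489 reads in diffDC, rank 12 of all genes, and 616740 in maDC, rank 4. These reads made up 0.410% of the diffDC total and 0.891% of the maDC total. Thbs1 was 2.47-fold lower in diffDC (interval 2.46 to 2.48), a log2 ratio of -1.31. With the authors' library factor its log2 ratio was -0.87 and it was not called, which left 4 of the 9 genes higher and 3 lower. That factor called 32.2% of all genes higher and 15.7% lower. Its span on chromosome 2, 118111876 to 118127133 on the plus strand, holds the antisense non-coding gene Gm29233, whose reads cannot be told apart without strand. Of 92 genes with a level within 2-fold of its own, the nearest by log2 ratio included Ubb, at -1.31, and Rps27, at -1.29. That likeness rests on 1 pooled value in each of the 2 groups.

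Other thrombospondins had few reads, and the receptors did not share a direction. Thbs2 had 41 reads in diffDC and 4 in maDC, Thbs3 277 in diffDC and 50 in maDC, and Thbs4 5 in diffDC and 179 in maDC. Per length, Thbs1 stood at 658 RPKM in diffDC and 1626 in maDC, while Thbs3 stood at 0.908 RPKM in diffDC and 0.242 in maDC. Cd47, encoding the thrombospondin receptor that also signals against uptake by phagocytes, was 2.14-fold lower in diffDC (interval 2.09 to 2.19). Sirpa, encoding the partner of CD47 on phagocytes, was 3.79-fold higher (interval 3.74 to 3.84). Cd36, the scavenger receptor, had 54948.79 reads in diffDC and 23715.19 in maDC, a log2 ratio of 0.65, and was not called. Itgb3, the beta chain of an RGD-binding integrin, was 3.21-fold lower (interval 3.11 to 3.33). Lrp1, which takes up thrombospondin-1 too, is the gene described above as 9.67-fold higher. Of the 13 genes in this list 4 were higher, 4 lower and 5 not called, with a median log2 ratio of 0.10. With the authors' library factor 6 were higher and 2 lower, since Cd36 and the latent growth factor gene Tgfb1 passed at 1.09 and 1.04 and Cd47 and Comp no longer did, at -0.66 and -0.74. With the read totals, Cd47 at -0.91 and Comp at -0.99 also missed the limit. The authors' factor called 32.2% of all genes higher and 15.7% lower.

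Thrombin is sensed by protease-activated receptors. F2r, encoding the main thrombin receptor PAR1, had 1782 reads in diffDC and 50 in maDC, 24.1-fold higher in diffDC (interval 18.2 to 32.6). F2rl1, encoding PAR2, which the tissue factor complex cleaves, had 1 read in diffDC and 3 in maDC. F2rl3, encoding PAR4, had 45 reads in diffDC and 79 in maDC, a log2 ratio of -1.38 that was called lower, but not with the authors' library factor, at -0.94. F2rl2 was not called, so that 1 of these 4 genes was higher, 1 lower and 2 not called, with a median log2 ratio of -0.55.

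Stroma markers rose in the same pool as F3, F2r, Thbd, Mrc2 and Thbs2, genes that fibroblasts or vessel cells are also known to express. These were picked among genes that rose. Vwf and Procr, known from endothelium, were lower in diffDC, at log2 ratios of -1.45 and -7.83, as were 6 of 8 matched endothelial markers. Thbs4 and Comp, from the list that holds Thbs2, were lower too, at -5.73 and -1.17. Of 18 fibroblast and reticular stroma markers 17 were matched, 12 higher and 2 lower in diffDC, with a summed level of 391 RPKM in diffDC and 24.4 in maDC. Fn1, the fibronectin gene that macrophages also make, held 184 RPKM of that sum in diffDC and 16.7 in maDC. Col3a1, the widest rise of that list, had 26756 reads in diffDC and 26 in maDC, and Fbln1 was listed at 0 in maDC. The 2 lower markers were Thy1, with 3 reads in diffDC and 21 in maDC, and Tagln, with 25 in diffDC and 47 in maDC. Pdpn, Postn and Loxl1 were not called. The part of stromal cells in these results was not tested. Granulocyte markers went both ways, 3 of 10 higher and 5 lower, with a summed level of 33.9 RPKM in diffDC and 78.8 in maDC, and Ly6g was listed at 0 in diffDC.

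**Figure D4:**
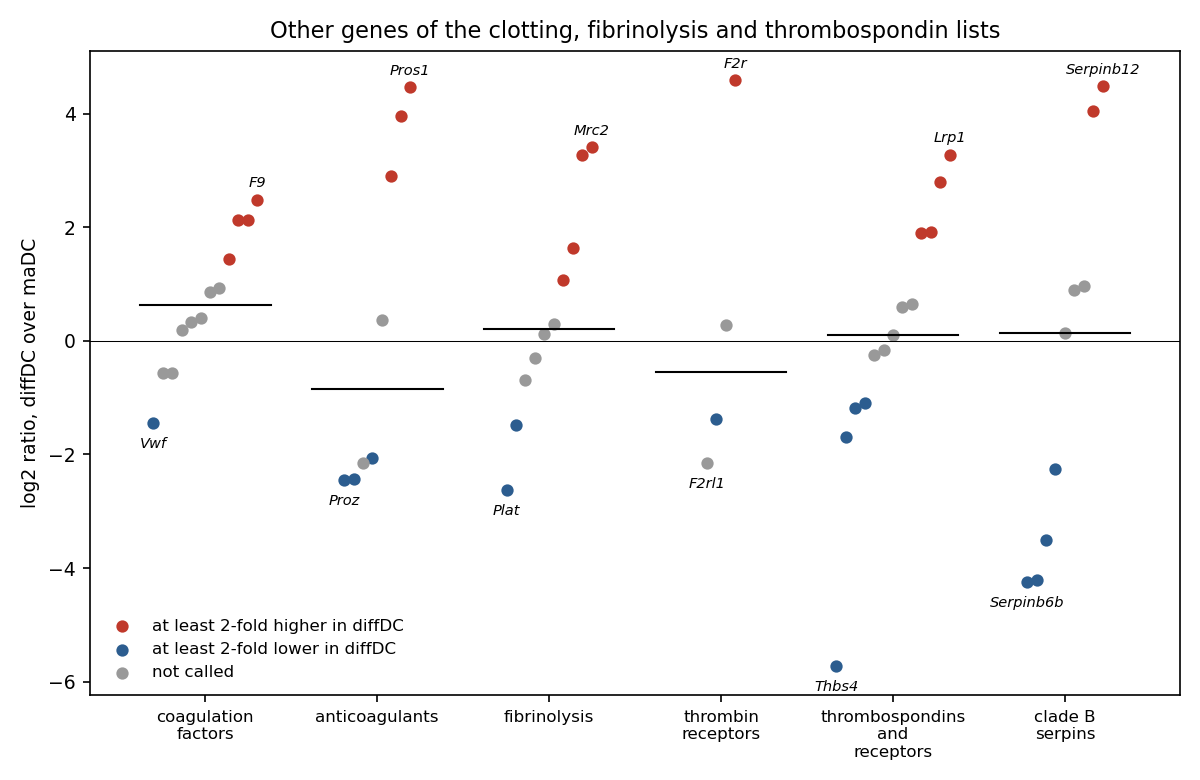
Log2 ratio of diffDC over maDC for each matched gene of 6 further lists, red where called higher in diffDC, blue where called lower and grey where not called, with a black line at each list's median and the top and bottom gene named. Each list holds genes on both sides of 0, with Pros1, F2r and Serpinb12 highest and Thbs4 lowest.

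Over the 5 lists without the serpins, 46 of 59 different genes were matched, of which 15 were higher, 11 lower and 20 not called. Their median log2 ratio was 0.29, against 0.03 over all genes, and 23.3% and 21.0% of all genes were called higher and lower. Under the authors' library factor 19 were higher and 8 lower, where 32.2% and 15.7% of all genes were called in these directions and 47.9% in either. That factor raised every log2 ratio by 0.44, and the median over all genes became 0.46.

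The order of the 9 genes by level per length differed between the pools. In diffDC it ran from Thbs1 at 658 RPKM and F13a1 at 564 through Plau at 203 and Plaur at 145 to F10 at 26.2, F7 at 8.96, F3 at 6.19, Procr at 3.68 and Serpinb2 at 0.598. In maDC it ran from Thbs1 at 1626 RPKM, Procr at 840 and F10 at 445 through Plau at 77.3, Plaur at 63.6 and F7 at 48.7 to F13a1 at 12.2, F3 at 1.31 and Serpinb2 at 1.17. Thbs1 stood first and Serpinb2 last in both orders, and the places of Procr and F13a1 changed most. The counting intervals of F3, 1.11 to 1.53 RPKM, and Serpinb2, 0.993 to 1.38 RPKM, overlapped in maDC, so that pair had no order there. Thbs1 had 1.17 times the level of F13a1 in diffDC and 133 times in maDC.

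**Figure D5:**
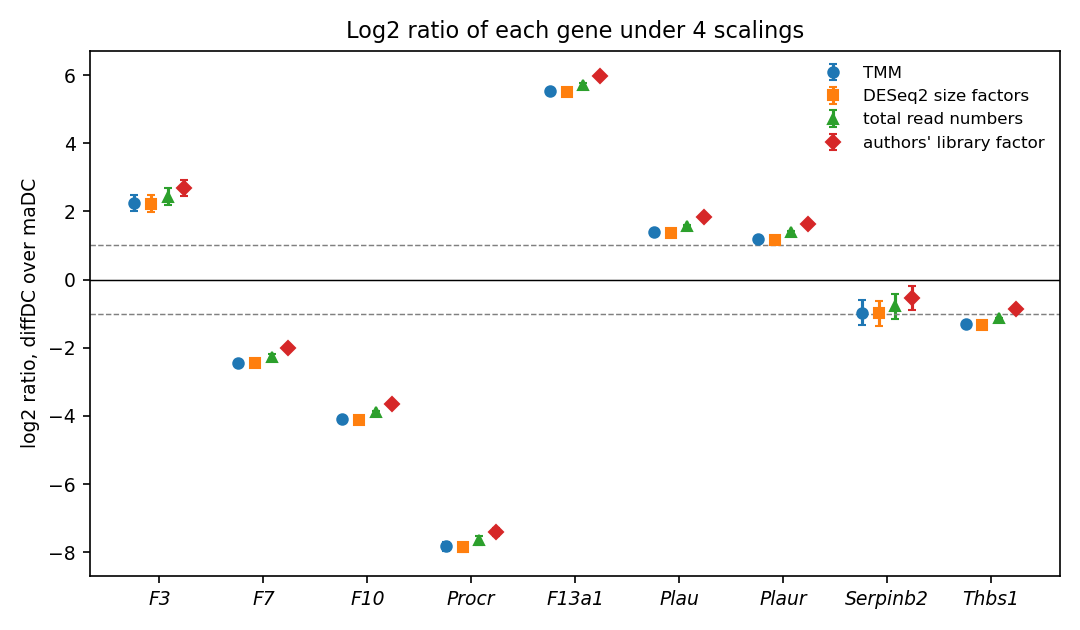
Log2 ratio of diffDC over maDC for each of the 9 genes under 4 scalings, with 95% counting intervals and dashed lines at 2-fold. Each gene keeps its sign under the 4 scalings, and Thbs1 crosses the 2-fold line, from -1.31 with TMM to -0.87 with the authors' library factor.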

How the data were processed

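RNA of 6 libraries, 3 per group, was sequenced on an Illumina HiSeq platform, per the labels' protocols. The authors' deposited read numbers, 1 column per group per the file headers, were taken as estimated counts pooled over a group's libraries. Whether they are sums over libraries is not stated, and the counting intervals hold only for sums. Of the values, 57.5% in diffDC and 58.2% in maDC were whole within 0.005. The submitters' processing notes name GRCm38.p4 and mm10. Aligner, counter and pooling are not given in the sources used here. The deposited table also holds a gene length and a log2 ratio of diffDC over maDC. The authors' log2 ratio was that of the reads less 0.127 (the authors' library factor), within 0.001, for all but 1 of the 14573 genes read in both groups. One emptied line was left out.

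Reads were rounded and scaled by TMM (edgeR 4.0.16, R 4.3.3). The log2 library factor of diffDC over maDC was 0.563 with TMM, 0.377 with read totals and 0.585 with DESeq2 1.42.0 size factors. Exact Clopper-Pearson 95% intervals of the ratio and exact Poisson intervals of reads were computed with scipy 1.17.1. Calls needed at least 2-fold and an interval without equality, with 0.5 in place of 0 reads. RPKM used the authors' length and the TMM-scaled totals, CPM the read totals. The planned edgeR quasi-likelihood test needs values per library and was not run. The procedure was tested before use on simulated data, in which far fewer genes changed than were called here. It called 100 of 100 genes changed 4-fold, 54 of 100 changed 2-fold and 60 of 15082 left unchanged. The simulated reads varied by counting alone, so these counts do not cover differences between cultures or PCR copies.

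The members and lists were chosen with earlier results of these data known. Named from each list were the 2 widest called changes in each direction and the direct partners of the 9 genes; some genes that this rule takes are not reported here. Neighbours and coordinates came from GENCODE M21 (GRCm38), promoters from RefSeq (GRCm38.p6). Python 3.11.15, pandas 2.3.3, numpy 2.4.6 and matplotlib 3.10.9 were used.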

Additional observations from a re-analysis of the deposited data

How the results depend on the processing

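The log2 ratio of each of the 9 genes kept its sign under the authors' library factor, read totals and DESeq2 size factors. The other settings, 1 read in place of 0, a minimum mean of 5 CPM, which left out Serpinb2, and a 4-fold limit, cannot change these ratios. The call of Thbs1 was lost with the authors' library factor (-0.87) and with the 4-fold limit, as were Plau and Plaur with that limit, so that 2 of the 9 genes were higher and 3 lower. Of the 46 further genes, 5 were lower with the 4-fold limit, against 11 with the 2-fold limit. Of the 27 with a mean of at least 5 CPM, 4 were lower and 11 higher, against 11 lower and 15 higher of all 46. The other lower genes, Proz, Tfpi2, Serpinc1, F2rl3, Thbs4, Comp and Vwf, had a mean below 5 CPM. The share of all genes called under either setting was not computed. The shares given above are for the 2-fold limit over all genes and are no background for these counts. No paired analysis was possible because the table gives 1 pooled value per group, and no library could be left out in turn for the same reason. Depth limits genes with few reads, among them F2, F2rl1, Tfpi2, Serpinb12, F9, Thbs2 and Thbs4, more than any of the 9 genes.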
